A study of Mus musculus with 12 samples.

Results

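Cluster 15 is a set of nuclei from the dissected embryonic mouse cortex that the study classed as interneurons and named Int 3. Its members are all nuclei that the deposited tables place in that cluster, 1286 of the 50550 nuclei analysed here (2.54%) and 9.35% of the 13749 nuclei in the 7 interneuron clusters. Membership came from the authors' clustering of the neuronal and progenitor nuclei they kept, and treatment took no part in the rule used here. The nuclei came from the cortices of C57BL/6J embryos at embryonic day 14, whose dams had received 1 intraperitoneal injection a day from embryonic day 8 to 13, 6 in all. The Saline group (5 embryos) received saline, and the EtOH group (6 embryos) received ethanol at 2.5 g/kg, given as a 25% v/v solution in saline. The embryos are littermates of few dams: S1 and S2 for Saline, E1 and E2 for EtOH. An embryo is named here by its dam and number, so that S2-4 is sample 4 of dam S2. The libraries of S1 and E1 formed batch 1 and those of S2 and E2 batch 2. A further Saline embryo, S2-3, was not analysed here. The study's methods report dropping 1 Saline sample, which they do not name, because its cells were spread differently over the clusters. The comparison of nuclei shares below covers only the embryos kept. In the tests of this report the embryo was the replicate, and since littermates enter as independent samples, the p-values measure the spread between these embryos and not that between litters.

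Interneurons are the inhibitory neurons of the cortex. They make GABA with the enzymes encoded by Gad1 and Gad2, are born in the ganglionic eminences below the cortex, and migrate tangentially into it. The medial ganglionic eminence is patterned by Nkx2-1, which is followed by Lhx6 and Sox6 in neurons bound for the cortex. A related set of neurons from the same region keeps Lhx8 and Gbx1, stays in the basal forebrain and includes the cholinergic neurons. Interneurons of the caudal eminence are known instead by Nr2f2, Prox1, Sp8 and, later, Htr3a.

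The nuclei were sequenced to between 734 and 65630 UMIs each (unique molecular identifiers, 1 per captured transcript), with a median of 9146 UMIs. Summed per embryo, the cluster held between 330588 UMIs (E1-1) and 2821135 UMIs (S2-1). The EtOH embryos E1-1, E1-2 and E2-3 held the fewest, and their levels are the least precise. Only 3 of the 1286 nuclei had fewer than 2000 UMIs. Of these nuclei, 1 cell barcode was shared between the libraries within the cluster, and 22 nuclei carried a barcode that also occurred in another library of the series. Saline embryo S2-4 stood apart from the other Saline embryos. Over all of its nuclei, 1.70% of UMIs fell in genes annotated as antisense, against 0.986% to 1.21% in the other Saline embryos and 1.55% to 1.71% in the EtOH embryos.

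The percentage of nuclei in Cluster 15 did not differ between the groups beyond the spread between embryos. The share was 2.46% in S1-1, 2.84% in S1-2, 4.17% in S2-1, 2.82% in S2-2 and 1.76% in S2-4. In the EtOH embryos it was 2.10% in E1-1, 1.74% in E1-2, 2.29% in E2-1, 2.86% in E2-2, 1.75% in E2-3 and 2.09% in E2-4. The groups overlapped, with means of 2.81% ± 0.877 (SD, n = 5) for Saline and 2.14% ± 0.414 (SD, n = 6) for EtOH. The difference of -0.670 percentage points gave p = 0.121 in a two-sided exact permutation test over all 462 splits of the embryos, and p = 0.138 when only splits within batches were used. Without S2-4 the difference was -0.932 percentage points (p = 0.0238, exact permutation test), without E2-2 it was -0.814 percentage points (p = 0.0476, exact permutation test), and without S2-1 it was -0.330 percentage points (p = 0.276, exact permutation test). As a share of interneuron nuclei, the means were 10.5% ± 3.20 (SD, n = 5) and 8.69% ± 0.958 (SD, n = 6), with p = 0.225 in the same exact permutation test.

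The EtOH libraries held fewer nuclei of the cluster, and whether their depth differed turned on single embryos. Saline embryos gave 167 ± 53.5 nuclei (SD, n = 5) and EtOH embryos 75.3 ± 37.5 nuclei (SD, n = 6), which differed (p = 0.00866, two-sided exact permutation test). Totals over all clusters were 2346 to 4928 nuclei in EtOH and 4437 to 7639 in Saline libraries, overlapping through E2-2 and S2-2, and were not tested. The median depth per nucleus was 9595 ± 1436 UMIs in Saline and 7729 ± 1600 UMIs in EtOH embryos (SD, n = 5 and 6; p = 0.0693, exact permutation test). The difference in median UMIs per nucleus of Cluster 15 was -2374 UMIs without S2-4 (p = 0.0286, exact permutation test) and -2250.0 UMIs without E2-1 (p = 0.0397, exact permutation test). It lay in batch 1, with means of 10882 and 6170.0 UMIs, against 8737 and 8509 UMIs in batch 2. Median genes per nucleus were 3081 ± 207 and 2787 ± 382 (SD, n = 5 and 6; p = 0.162, exact permutation test). When each nucleus was thinned to 2000 UMIs, leaving out 1 shallower Saline nucleus and 2 EtOH nuclei, the medians were 1124 ± 24.3 and 1133 ± 12.5 genes (p = 0.472, exact permutation test).

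**Figure D1:**
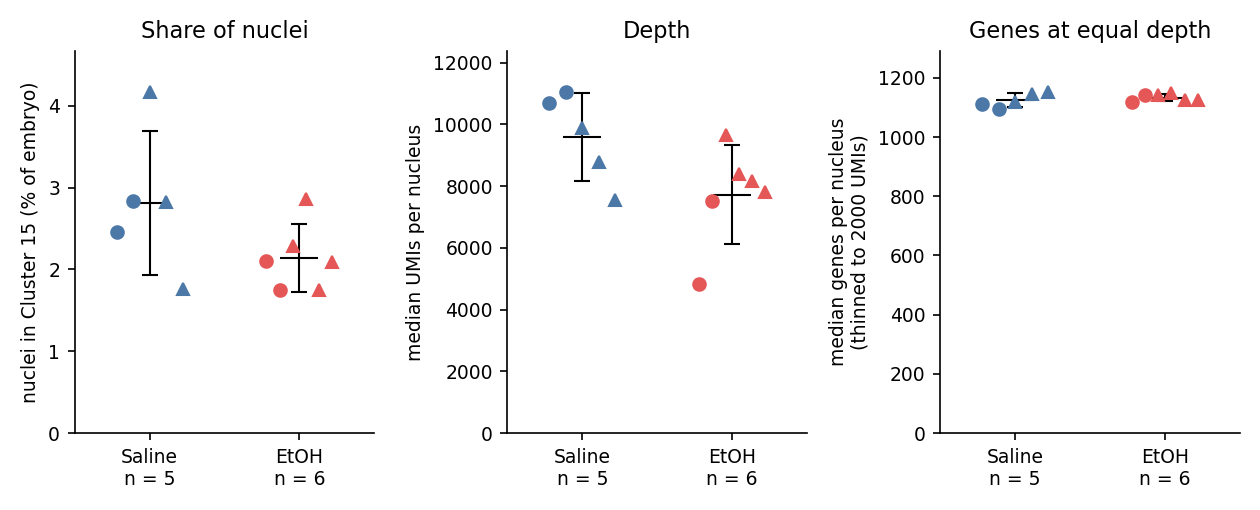
Percentage of an embryo's nuclei in Cluster 15, median UMIs per nucleus and median genes per nucleus after thinning to 2000 UMIs, for 5 Saline (blue) and 6 EtOH (red) embryos, with circles for batch 1, triangles for batch 2 and the mean ± SD in black. The groups overlap in all 3 panels, with shares of 1.76% to 4.17% in Saline and 1.74% to 2.86% in EtOH embryos.

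The GABAergic label held in these nuclei. Levels are given in CPM (counts per 1000000 UMIs of the cluster in an embryo) and compared for the same gene between clusters or embryos only. Because the clusters were made from the same nuclei, these levels are descriptions with no test. Gad2, the GABA-synthesising enzyme given as a marker of the cluster, was at 1116, 1146, 1269, 1229.7 and 1069 CPM in the Saline embryos S1-1, S1-2, S2-1, S2-2 and S2-4. In the EtOH embryos E1-1, E1-2, E2-1, E2-2, E2-3 and E2-4 it was at 1258, 899.7, 806, 1034, 1095 and 1182 CPM. Its mean of 1100.4 ± 145 CPM (SD, n = 11) ranked 5 of the 25 clusters, with the top rank held by Cluster 23 at 1248 ± 165 CPM, a gap within the SDs. A UMI of Gad2 was found in 97.6% of the nuclei. In Cluster 1, a projection neuron cluster that should lack the gene, it was found in 16.6% of nuclei at a median of 6608 UMIs. After thinning to 2000 UMIs the shares were 78.6% and 5.36%. Erbb4, the neuregulin receptor of migrating interneurons and the other marker given, was at 4670.1 ± 839 CPM (SD, n = 11), the third highest mean. Clusters 5 and 23 were far above it, at 23026 and 22228 CPM, and Cluster 13 was within the SD at 4193 ± 1043 CPM. An Erbb4 UMI was found in 71.6% of thinned nuclei against 33.5% in Cluster 1.

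The transcription factors of the medial ganglionic eminence were present together with those of its basal forebrain neurons. Nkx2-1 averaged 56.0 ± 23.6 CPM (SD, n = 11), the highest mean of the 25 clusters, though Cluster 20 followed at 47.2 ± 44.2 CPM with overlapping spread. Lhx6 averaged 190.3 ± 57.8 CPM and was exceeded only by Cluster 5 (285 ± 21.5 CPM). Sox6 averaged 2469 ± 415 CPM and ranked 4. Lhx8, the LIM homeodomain factor of cholinergic and other basal forebrain neurons, was highest here at 171 ± 43.3 CPM, and Cluster 18 followed at 130.4 ± 46.1 CPM, within the SDs. Gbx1, a homeodomain factor, averaged 201 ± 47.6 CPM against 116 ± 56.7 CPM in Cluster 18 and 10.9 CPM in Cluster 7, the next in order. A Lhx6 UMI was found in 62.9% of nuclei and a Lhx8 UMI in 51.0%, against 1.86% and 1.15% of Cluster 1 nuclei. Etv1, an ETS factor, had the second highest mean (197 ± 68.7 CPM) and Satb1, a chromatin organiser of maturing interneurons, the third (209 ± 76.5 CPM).

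The cholinergic and striatal genes given here were low, while caudal factors ranked in the middle of the clusters and Adarb2 was highest. Chat, the acetylcholine-synthesising enzyme, was at 1.34 CPM here and at 37.4 CPM in Cluster 18, and 0.778% of the nuclei had a UMI of it. Isl1, a factor of cholinergic and striatal neurons, was at 11.4 ± 5.32 CPM here, 174 CPM in Cluster 18 and 277 CPM in Cluster 11. Of the caudal factors, Nr2f2 (57.9 CPM) ranked thirteenth, Prox1 (33.8 CPM) twelfth and Sp8 (2.72 CPM) twelfth of the 25 clusters, and Htr3a was at 0.499 CPM. An Nr2f2 UMI was found in 21.3% of nuclei against 9.21% in Cluster 1, or 8.03% and 3.01% after thinning. For Prox1 the shares were 9.10% and 3.18%, or 2.96% and 0.713% after thinning. Nr2f1, of the same gene list, averaged 100.3 CPM in Saline and 102 CPM in EtOH embryos. Adarb2, an RNA-editing enzyme relative often used as a caudal marker, stood apart. Its 18432 ± 1737 CPM (SD, n = 11) was the highest of all clusters, followed by Cluster 23 at 14095 ± 2900 CPM and Cluster 13 at 4555 CPM, and every one of the 1286 nuclei had a UMI of it. In Cluster 1 an Adarb2 UMI was found in 43.5% of nuclei, or 19.8% after thinning, against 99.7% of the thinned nuclei here. Ebf1, a striatal factor, was at 94.7 ± 129 CPM against 12463 CPM in Cluster 11. Its SD came from 1 embryo, E2-1, at 469.6 CPM. Meis2, a homeodomain factor of the lateral eminence, ranked 22 of 25 at 849 CPM. The 10 peptide and late interneuron genes summed to 1261 CPM, rank 3 of 25, of which Nxph1, a secreted neurexin ligand, gave 1203 ± 441 CPM. Of the others, Sst averaged 10.5 CPM, the second highest cluster mean, and Pvalb 0.0322 CPM, from 1 UMI in the whole cluster.

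**Figure D2:**
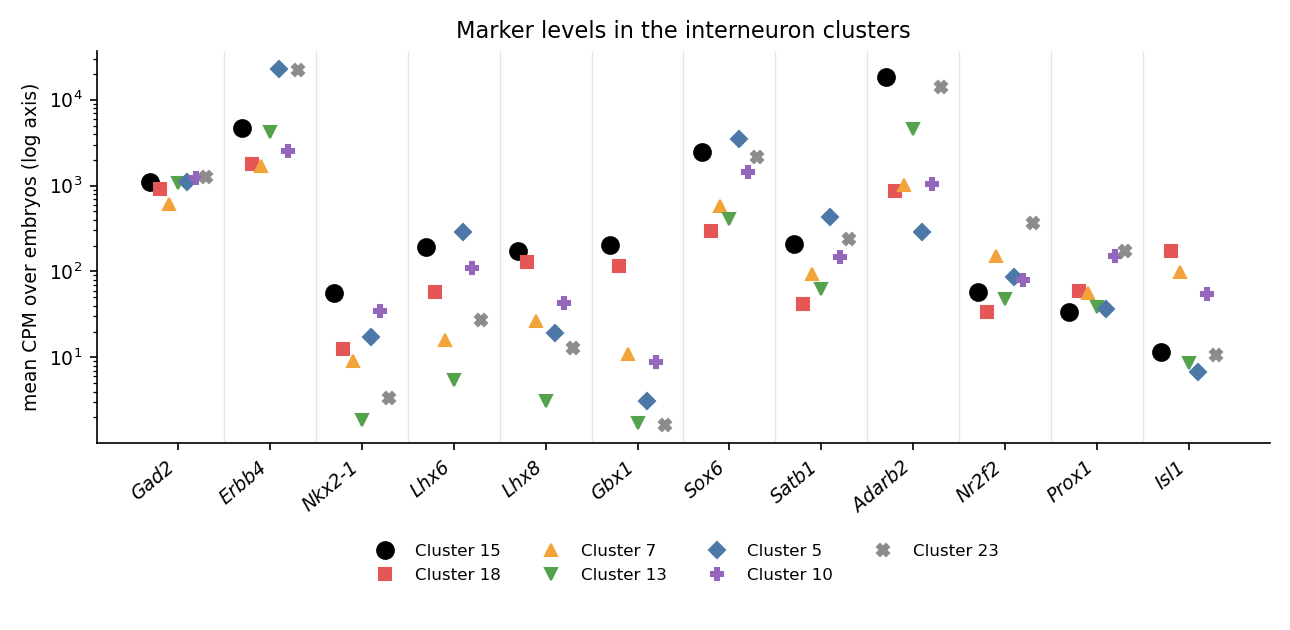
Mean level over embryos (CPM, log axis) of 12 marker genes in the 7 interneuron clusters, with black circles for Cluster 15. Among these clusters Adarb2, Gbx1, Lhx8 and Nkx2-1 are highest in Cluster 15, Erbb4 and Lhx6 in Cluster 5 and Isl1 in Cluster 18.

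Of 6139 genes with at least 20 CPM in Cluster 15, 88 had their highest mean there, and 7 of these were more than 2 times the next cluster's mean. Kctd8, an auxiliary subunit of GABA-B receptors, led among the abundant ones, with 1027 ± 286 CPM (SD, n = 11) and a range over embryos of 508 to 1493 CPM. The next cluster, 19, was at 335 ± 162 CPM, a ratio of 3.06. The largest ratios belonged to rarer genes: Atp10b, a phospholipid flippase, at 26.5 ± 22.3 CPM (9.19 times Cluster 14), and Mettl11b, a methyltransferase, at 21.4 ± 11.5 CPM (8.06 times Cluster 21). Atp8b1, another flippase, was at 21.8 CPM (3.24 times), and Rgs10, which shortens G protein signalling, at 22.7 CPM (2.04 times). Gabrb2, a GABA-A receptor subunit gene, also had its highest mean in Cluster 15 (716 ± 100.1 CPM), with the runner-up, Cluster 22, within the SDs at 627 ± 112 CPM. Of the first 40 genes that the study lists as markers of the cluster, which it chose on these nuclei, all 40 were found, 16 were highest here and 28 were among the top 3 clusters.

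Genes of other cell types were present at low summed levels. The 10 radial glia genes summed to between 241 and 493 CPM in the Saline and between 44.3 and 447 CPM in the EtOH embryos, and 0 of the 10 were at 0. The cluster ranked 18 of 25 for that sum, against 6008 CPM in Cluster 12. For 12 proliferation genes the ranges were 175 to 460 CPM and 64.9 to 372 CPM (rank 15), and for 8 projection neuron genes 145 to 219 CPM and 102 to 354 CPM (rank 22). The 4 intermediate progenitor genes summed to 9.35 to 21.8 CPM and 5.90 to 27.1 CPM (rank 23), and the 22 genes of non-neuronal cells to 41.8 to 157 CPM and 53.1 to 104 CPM (rank 12). The authors had already removed nuclei rich in hemoglobin genes and the non-neuronal clusters, which limits what this last sum can show. Sums of the 5 Cajal-Retzius genes were 273 to 359.5 CPM and 239 to 407 CPM (rank 9), and of the 4 thalamic genes 148 to 303 CPM and 38.4 to 581 CPM (rank 16). Neurod2, a defining factor of projection neurons, had a UMI in 11.2% of nuclei against 75.7% in Cluster 1. Their part in the results that follow was not tested.

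Lhx8 was detected in part of the nuclei of the cluster. It was found in 656 nuclei and not in 630, with embryo shares of 39.7% to 59.0%. After thinning to 2000 UMIs it was found in 23.9% of nuclei (13.8% to 36.7% over embryos), so the even split depends on depth. Nuclei with a Lhx8 UMI were deeper, with a median of 9998.5 UMIs against 8353.5 UMIs, and the absence of a UMI does not show absence of the transcript. Gbx1 was found in 63.9% of nuclei with Lhx8 and 17.8% of those without, the share being higher with Lhx8 in 10 of 11 embryos. After thinning to 2000 UMIs the shares were 34.6% and 17.4%. Nkx2-1 was found in 43.3% and 7.62% of them (11 of 11 embryos), or 20.3% and 8.39% after thinning. Lhx8 was found in 60.7% of nuclei with Lhx6 and 34.6% of those without (higher in 11 of 11 embryos), or 28.4% and 22.1% after thinning. Nr2f2 was found in 15.1% of nuclei with Lhx6 and 31.9% of those without, or 3.93% and 9.60% after thinning, and its share was higher with Lhx6 in 2 of 11 embryos. In Cluster 1 it was found in 9.21% of nuclei, or 3.01% after thinning.

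Sums of the nuclei with and without Lhx8 were set side by side within each embryo over 1879 genes with at least 100 CPM, on a log2 scale with 10 CPM added. The split uses the same nuclei and was made after the cluster was known, so these values are descriptions with no test. Whether the nuclei with Lhx8 were cortical interneurons or basal forebrain neurons was not tested. The comparison of EtOH with Saline below pools nuclei with and without Lhx8. The median difference over all genes was -0.0440. In all 11 embryos, 67 genes were higher with Lhx8 and 76 lower. Among the former, Etv1 averaged 307 ± 114 CPM with Lhx8 and 73.3 ± 61.6 CPM without (SD, n = 11; mean log2 difference 2.18). Kctd8 averaged 1508 ± 347 and 465 ± 298 CPM (1.84). Shisa9, a regulator of AMPA receptors, averaged 434 ± 174 and 127 ± 51.1 CPM (1.72), and Sema3e, a secreted guidance cue, 320 ± 148 and 94.9 ± 56.5 CPM (1.69). Gbx1 itself averaged 299 ± 78.4 and 89.2 ± 58.4 CPM (1.74, 10 of 11 embryos).

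The nuclei without Lhx8 were the richer in Erbb4. It averaged 2563 ± 740 CPM with Lhx8 and 7176 ± 1591 CPM without (SD, n = 11; mean log2 difference -1.52), and was lower with Lhx8 in each of the 11 embryos. Nxph1 averaged 547 ± 226 and 1975 ± 914 CPM (-1.95), and Nr2f1, a nuclear receptor of cortical development, 42.2 ± 32.2 and 169 ± 79.0 CPM (-1.87). Sgcd, a sarcoglycan, averaged 327 ± 116 and 1172 ± 281 CPM (-1.87), and Meis2 515 ± 450.2 and 1227 ± 479 CPM (-1.66). Satb1 was lower by less (-0.51, in 10 of 11 embryos it was higher without Lhx8). Gad2, Sox6, Gad1 and Lhx6 differed by less than these. Gad2 averaged 1051 ± 176 and 1154 ± 144 CPM (-0.14), and Sox6 2402 ± 358 and 2565 ± 660 CPM (-0.07). Gad1 averaged 245 ± 44.4 and 289.6 ± 30.6 CPM (-0.25, higher without Lhx8 in 10 of 11 embryos). Lhx6 averaged 214 ± 66.1 and 163 ± 60.2 CPM (0.39, higher with Lhx8 in 9 of 11 embryos). Other genes listed for identity, Etv1, Gbx1 and Nr2f1, were among those that differed most, as was the marker Erbb4.

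**Figure D3:**
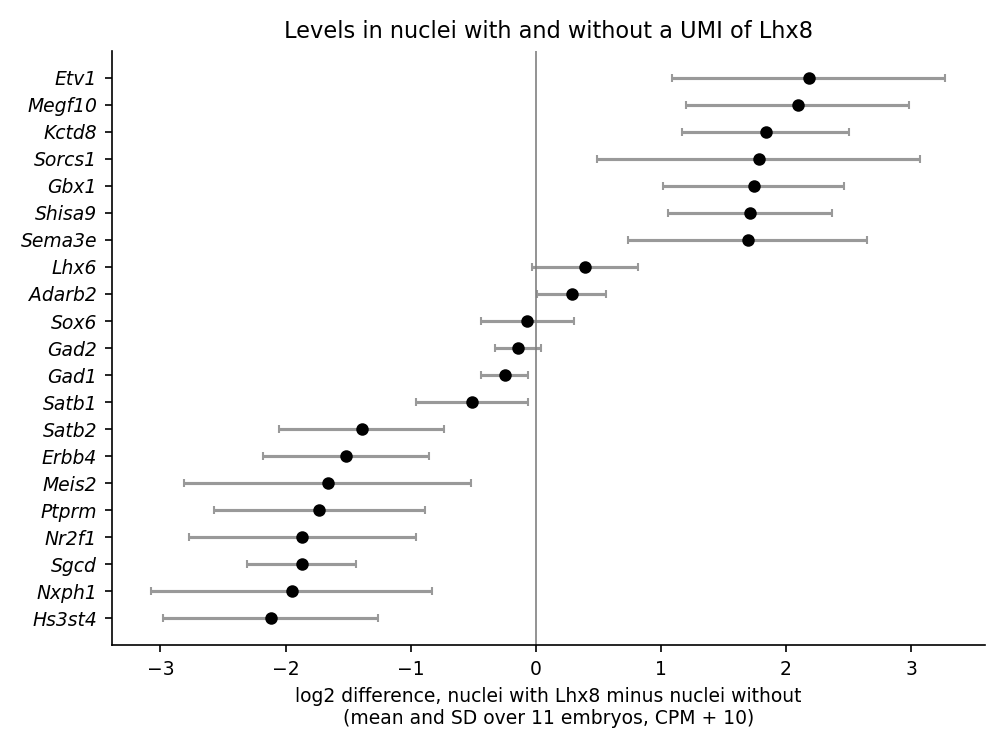
Difference in level between Cluster 15 nuclei with and without a Lhx8 UMI (log2 of CPM + 10), as the mean (points) and SD (bars) over 11 embryos. Etv1 and Kctd8 lie at 2.18 and 1.84, Sox6 and Gad2 near 0, and Erbb4 and Nxph1 at -1.52 and -1.95.

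EtOH was compared with Saline to find which genes of this cluster responded to the exposure. Over 9134 genes tested by edgeR's quasi-likelihood test on UMI sums per embryo, 38 (0.416%) were called at a Benjamini-Hochberg adjusted p under 0.05. The study's further limits on fold removed none of them. Of these, 31 (0.339%) were higher and 7 (0.0766%) lower after EtOH. Unadjusted p-values under 0.05 were found for 1265 genes (13.8%), 821 higher and 444 lower, and the median log2 change of all genes was 0.01. The levels of the groups did not overlap for 127 of all genes (1.39%), among them 18 of the 31 and 5 of the 7. The number of calls rested on single embryos. It ranged from 4 without S2-1 to 393 without S2-4, was 5 without S1-1, 6 without S1-2, 9 without E2-2, 16 without E1-2, 17 without E1-1, 21 without E2-1 and 25 without S2-2. In each of these fits all 38 genes kept their direction. With batch as a term, 27 of the 38 were called. Batch 1 alone gave 13 calls (0 of the 38 among them) and batch 2 alone 0, with 777 genes at an unadjusted p under 0.05.

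The secreted factor genes Vwc2 and Fam19a5 were lower in every EtOH embryo than in any Saline embryo. Vwc2 encodes a secreted antagonist of bone morphogenetic proteins and lies on chromosome 11 (mm10, 11114223 to 11268931, plus strand). It stood at 162, 131, 184, 155 and 181 CPM in S1-1, S1-2, S2-1, S2-2 and S2-4. In E1-1, E1-2, E2-1, E2-2, E2-3 and E2-4 it stood at 66.5, 77.9, 100.3, 59.0, 70.8 and 92.8 CPM. The groups did not overlap, S2-4 being among the highest, and Vwc2 fell by 1.07 on the log2 scale (SE 0.13, edgeR adjusted p = 0.000538). The change was -1.08 in batch 1 alone (adjusted p = 0.0909) and -1.12 in batch 2 alone (adjusted p = 0.0712). Fam19a5, a secreted chemokine-like neuronal protein, lies on chromosome 15 (87544299 to 87759364, plus strand). Its Saline levels in the same order were 406, 349.8, 374, 437 and 392 CPM, and its EtOH levels 272, 236, 293, 271, 230.1 and 275 CPM. No EtOH embryo reached the lowest Saline embryo, and Fam19a5 fell by 0.59 (SE 0.09, edgeR adjusted p = 0.00425). Both genes were called whichever embryo was left out, with median depth as a term of the model, and in nuclei thinned to 2000 UMIs.

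The other 5 genes called lower included Sox11 and Rbpj. Sox11, a SoxC factor of newly born neurons, was at 359, 376, 392, 403 and 268 CPM in the Saline embryos and at 233, 231, 255, 211, 298 and 266 CPM in the EtOH embryos. The groups overlapped because S2-4 lay below E2-3, and Sox11 fell by 0.57 (SE 0.12, edgeR adjusted p = 0.0296). Rbpj, the transcription factor that carries Notch signals, was at 101 to 140.4 CPM in Saline and 69.6 to 86.5 CPM in EtOH embryos, with no overlap, and fell by 0.62 (SE 0.12, edgeR adjusted p = 0.0217). Enox2, a cell surface oxidase, fell by 0.60 and N4bp2 by 0.54, neither with overlap. With counts summed per dam, their adjusted p-values were 0.0599 and 0.0994. Kcnq1ot1, the imprinted antisense RNA of the Kcnq1 locus, was at 682 to 749 CPM in 4 Saline embryos, at 509 CPM in S2-4 and at 455 to 537 CPM in EtOH embryos, and fell by 0.48 (SE 0.11, edgeR adjusted p = 0.0489). With batch as a term its adjusted p was 0.0718. Leaving out an embryo took the adjusted p over 0.05 in 4 of 11 fits for Rbpj, in 6 of 11 for Enox2, in 8 of 11 for Sox11 and in 10 of 11 for both N4bp2 and Kcnq1ot1.

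**Figure D4:**
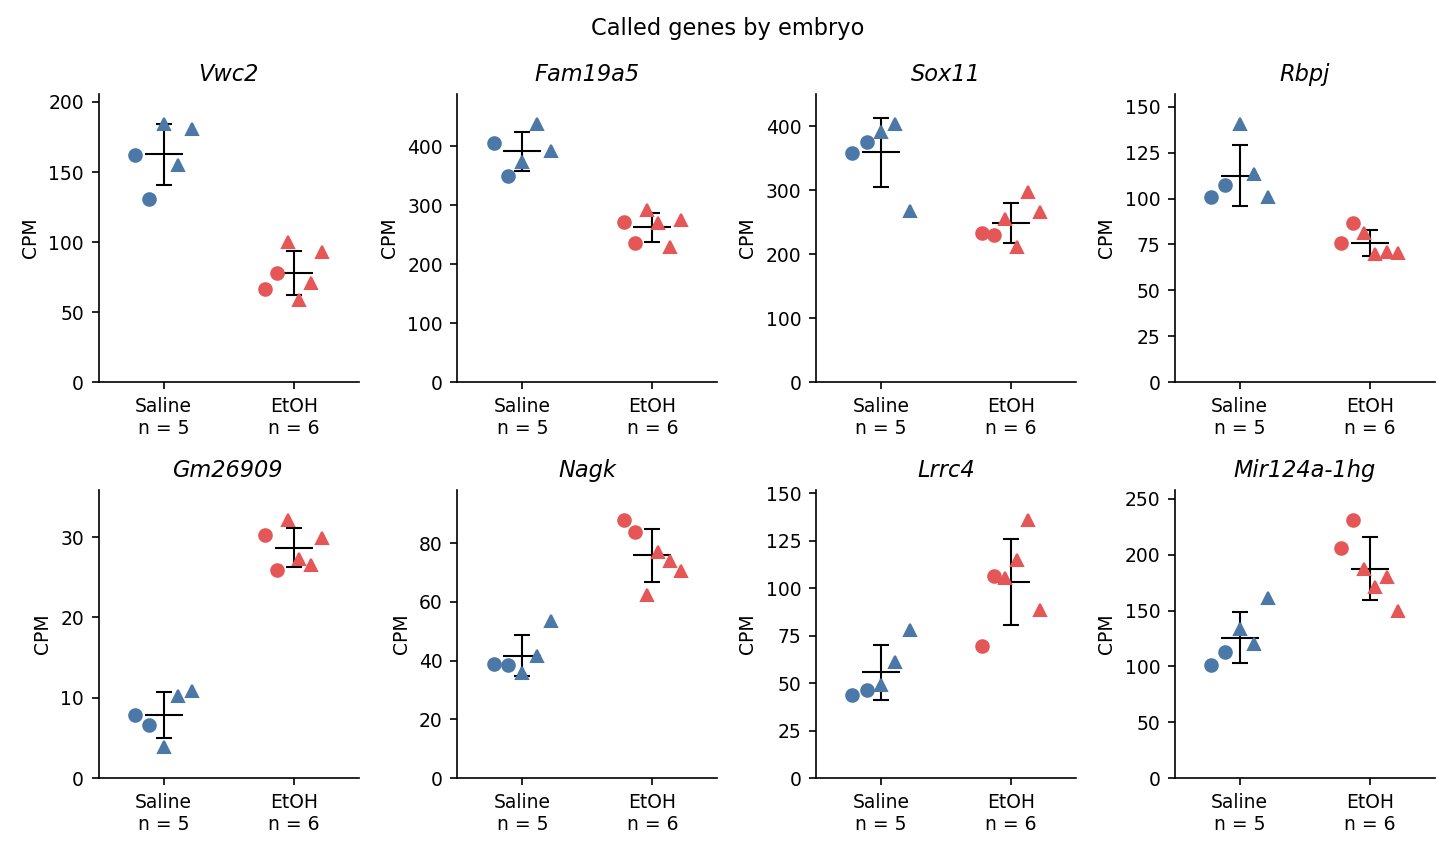
Levels (CPM) of 8 genes called between EtOH (red) and Saline (blue) in Cluster 15, with a point per embryo (circles batch 1, triangles batch 2) and the mean ± SD in black. Vwc2, Fam19a5, Rbpj, Gm26909 and Nagk do not overlap between the groups, while Sox11 overlaps through S2-4 at 268 CPM.

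Most genes called higher after EtOH were non-coding. The smallest p among them belonged to Gm26909, a long intergenic RNA on chromosome 8 (22644861 to 22646286, plus strand) that lies opposite Polb. It was at 7.84, 6.60, 3.90, 10.2 and 10.9 CPM in the Saline embryos and at 30.2, 26.0, 32.1, 27.2, 26.6 and 29.9 CPM in the EtOH embryos, from 67 and 123 UMIs in all. The groups did not overlap, and it rose by 1.92 (log2, SE 0.24, edgeR adjusted p = 0.000538). 1700024B18Rik, an antisense RNA of the Fgf14 locus, was at 11.3 to 26.4 and at 35.4 to 56.9 CPM and rose by 1.29 (SE 0.20, edgeR adjusted p = 0.00644). These genes were called whichever embryo was left out. Among protein-coding genes, Nagk, which phosphorylates N-acetylglucosamine, was at 35.8 to 53.6 and 62.5 to 87.7 CPM and rose by 0.82 (SE 0.14, edgeR adjusted p = 0.0105). Lrrc4, a synaptic adhesion protein that binds netrin-G, was at 43.6 to 78.2 and 69.6 to 136 CPM and rose by 0.90, with overlap through S2-4 and E1-1. Lyn, a Src family kinase, was at 8.80 to 14.5 and 17.96 to 46.1 CPM and rose by 1.28. Fndc9 was at 15.2 to 44.5 and 40.4 to 70.3 CPM and was called higher too (edgeR adjusted p = 0.0187). Ppp1r14b, an inhibitor of protein phosphatase 1 (1.06), Csf2ra, a cytokine receptor chain (0.88), Drg1, a GTPase (0.63), Impdh1, an enzyme of guanine nucleotide synthesis (1.37), and Ap1m1, a clathrin adaptor subunit (0.76), rose too, as did 4930432K21Rik, the last of the 10 coding genes called higher that matched the annotation. Of these coding genes, Lrrc4, Fndc9, Ppp1r14b and Drg1 overlap coding genes on the opposite strand, namely Snd1, Cyfip2, Plcb3 and Eif4enif1. They share this layout with the antisense genes described below, and its part in their rise was not tested. Mir124a-1hg, the host RNA of a neuronal microRNA, rose by 0.53 (edgeR adjusted p = 0.0470). With 1 embryo left out, the call held in 10 of 11 fits for Nagk, 7 for Lrrc4 and Lyn, 6 for Fndc9, 5 for Ppp1r14b, 4 for Ap1m1, 3 for Drg1 and 2 each for Csf2ra, Impdh1, 4930432K21Rik and Mir124a-1hg. With counts summed per dam, the adjusted p was 0.101 for Impdh1, 0.114 for Ap1m1, 0.105 for Csf2ra and 0.0994 for Mir124a-1hg. With batch as a term it was 0.0922 for Impdh1, 0.0644 for Ap1m1 and 0.0718 for Mir124a-1hg.

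Antisense genes made up 16 of the 30 genes called higher that matched the annotation (53.3%), against 3.54% of all matched genes tested. This class was chosen after its values were seen, so no test is given. Of 320 antisense genes tested, 276 were higher after EtOH (186 at an unadjusted p under 0.05, and 5 lower at that level), and their median log2 change was 0.66. The 8503 protein-coding genes had a median of 0.00 and the 225 long intergenic RNAs one of 0.21. The antisense share of UMIs in Cluster 15 was 0.908%, 0.906%, 0.912%, 1.08% and 1.501% in S1-1, S1-2, S2-1, S2-2 and S2-4, and 1.36% to 1.58% in the EtOH embryos. S2-4 thus lay with the EtOH embryos, as it did over all nuclei of the series, and it had the lowest median depth of the Saline embryos (7563 UMIs). For each of the 16, 1 tested coding gene on the opposite strand was examined, and these gave 0 calls. Of these 16 coding genes, 1 had an unadjusted p under 0.05 (Atp5o, log2 change 0.62), and the median was 0.02. Over all genes, 0.416% were called and 13.8% had an unadjusted p under 0.05, so the counts for 16 genes are not read as a result. The study's methods give default parameters of Cell Ranger, whose counting uses strand, and the cause of the antisense difference was not tested.

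S2-4 lay between the groups in the summed level of the 31 genes called higher. The sum was 732, 742, 749 and 897 CPM in the first 4 Saline embryos, 1269.8 CPM in S2-4 and 1552 to 1753 CPM in the EtOH embryos. S2-4 had the highest Saline level in 26 of the 31 genes. For the 7 genes called lower, the sum was 1676 CPM in S2-4, 1894 to 2052 CPM in the other Saline embryos and 1211 to 1404 CPM in the EtOH embryos. With the antisense share of the whole library as a term beside treatment, 0 genes were called by edgeR and 406 had an unadjusted p under 0.05. The share includes the UMIs of the called antisense genes themselves. S2-4 was the only Saline embryo within the EtOH range of the share, so the fit hardly separates the share from treatment. In that fit the log2 change of Vwc2 was -1.11 (adjusted p = 0.103) and that of Fam19a5 -0.58. Those of Sox11 and Kcnq1ot1 went to -0.18 and -0.08, those of Gm26909 and 1700024B18Rik to 1.42 and 0.91, those of Lyn and Nagk to 0.82 and 0.54, those of Lrrc4 and Fndc9 to 0.42 and 0.56, those of Gm10785 and Gm16105 to 0.39 and 0.60, those of Ppp1r14b and Drg1 to 0.30 and 0.19, and that of Mir124a-1hg to 0.27. When p-values were adjusted over protein-coding genes alone, 8 were called, 4 higher and 4 lower.

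**Figure D5:**
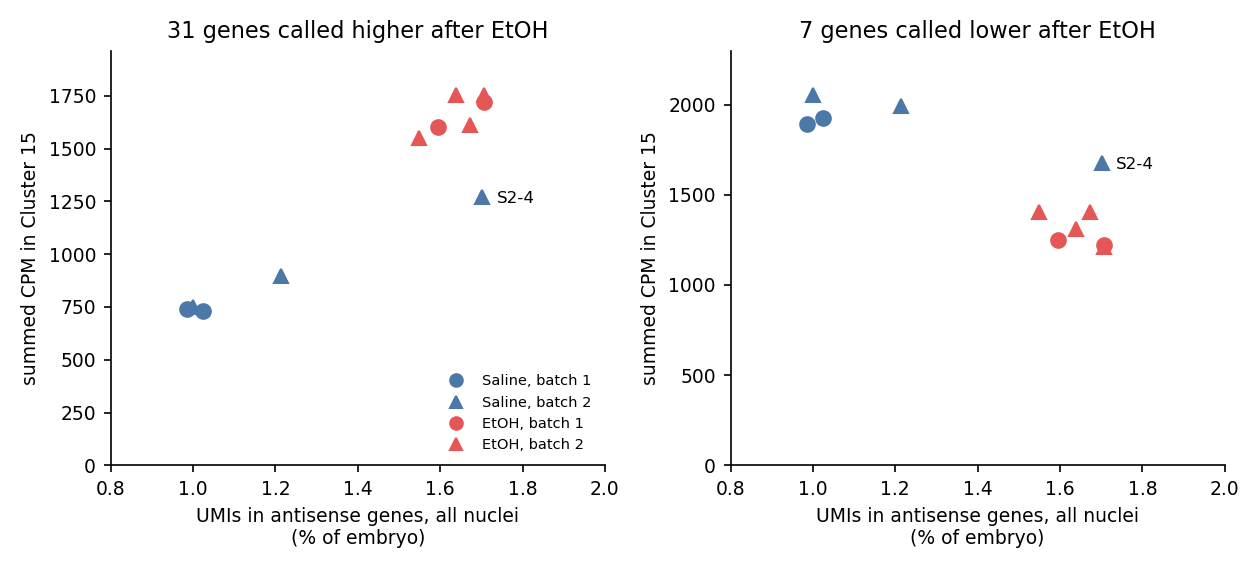
Summed CPM in Cluster 15 of the 31 genes called higher and the 7 called lower after EtOH, against the percentage of UMIs in antisense genes over all nuclei of the embryo (circles batch 1, triangles batch 2). Saline embryo S2-4 lies at 1.70% beside the EtOH embryos, with sums of 1269.8 and 1676 CPM between the groups.

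The genes that identify the cluster gave 0 calls, beside 0.416% called and 13.8% at an unadjusted p under 0.05 over all genes, and a count of 0 in lists of 5 to 40 genes is not read as a result about them. Of 9 medial eminence factors tested, 0 were called and 0 had an unadjusted p under 0.05, with a median log2 change of -0.02 beside 0.01 for all genes. Lhx6 was at 165, 187, 221, 193 and 176 CPM in Saline and at 312, 161, 103, 142, 266 and 168 CPM in EtOH embryos. Nkx2-1 ranged from 31.8 to 94.6 CPM and from 20.7 to 75.0 CPM (log2 change -0.71, SE 0.33, edgeR adjusted p = 0.369). Of 5 basal forebrain genes tested, 0 were called, with Lhx8 at -0.17 (SE 0.22) and Gbx1 at -0.01 (SE 0.21). Zic1, a zinc finger factor, had a change of -0.48 (SE 0.16, edgeR adjusted p = 0.190), and passed the threshold without S2-4 (adjusted p = 0.0469). Of 12 GABAergic identity genes, 0 were called (median -0.10). The vesicular GABA transporter Slc32a1 had a log2 change of 0.63 (edgeR adjusted p = 0.223), and the factors Dlx1 and Sp9 had changes of -0.43 and -0.53 (adjusted p = 0.223 and 0.295). The 5 caudal eminence genes tested, the 8 striatal genes and the 16 migration genes gave 0 calls and no unadjusted p under 0.05. The 40 marker genes the study chose on these nuclei gave 0 calls as well (median -0.07).

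Genes of synapses, channels and signalling are given against the same shares over all genes, 0.416% called and 13.8% at an unadjusted p under 0.05, and their counts are not read as a difference from other genes. Of 26 glutamate and GABA receptor and chloride transporter genes, 0 were called, and members with an unadjusted p under 0.05 included the AMPA receptor subunit Gria4 (-0.32) and the chloride importer Slc12a2 (-0.43). Of 27 synaptic genes and 24 ion channel genes, 0 were called, and Nlgn3 (0.42) and Kcnq5 (-0.57) were the members below that level. Of 14 maturation genes, 0 were called, with Elavl2 at -0.24, Elavl3 at -0.28 and Snhg11 at 0.78. Of 4 peptide and late marker genes tested, 0 were called, with Sst at 0.76 and Nos1 at 1.41, both at an unadjusted p under 0.05. Of 33 Wnt pathway genes tested of 54 listed, 0 were called. Rspo2, a secreted amplifier of Wnt signals, was the nearest. It stood at 24.4, 9.90, 20.2, 34.9 and 21.8 CPM in Saline and at 3.02, 5.77, 6.58, 13.6, 5.90 and 2.99 CPM in EtOH embryos. These levels came from 203 UMIs in Saline and 33 in EtOH embryos, with as few as 1 in an embryo. E2-2 overlapped the Saline range, and the log2 change was -1.56 (SE 0.36, edgeR adjusted p = 0.0600). It passed the threshold without S2-4 (adjusted p = 0.0252) and with counts summed per dam (0.0290). The ligands Wnt5a and Wnt7b had changes of -0.65 and 1.18, and the receptor Fzd3 one of -0.24. Of 8 cell death genes and 8 genes of alcohol and oxidative metabolism tested, 0 were called, with Bax, an effector of apoptosis, at 0.90 and Cat, catalase, at -0.75. Rgs6 (1.67), Hmga2 (-1.26) and Magel2 (-1.16, edgeR adjusted p = 0.0603) were not called. Magel2 passed the threshold without S2-4 (adjusted p = 0.0120) and with counts summed per dam (0.0473). Vwc2 and Rgs6 belong to a list that the study chose on these samples, of which 7 genes were tested, 0 were called higher and 1, Vwc2, lower. Rspo2, Hmga2 and Magel2 are the 3 tested genes of another such list, all 3 with a negative change and an unadjusted p under 0.05, and 0 were called. Lists chosen on these samples are not independent evidence of a direction.

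Genes of other cell types tested in the cluster gave 0 calls. Over all genes, 0.416% were called and 13.8% had an unadjusted p under 0.05, so these counts are not read as a result about them. Of 9 proliferation genes, 0 were called and the median log2 change was -0.54 beside 0.01 for all genes, with Diaph3 at -0.76 (edgeR unadjusted p = 0.0471). Of 6 radial glia genes, 0 were called and the median was -0.59, with Slc1a3, a glial glutamate transporter, at -0.71 (edgeR unadjusted p = 0.0371). With 1 embryo left out, the change ranged from -1.02 to -0.46 for Slc1a3 and from -1.06 to -0.51 for Diaph3. The 4 projection neuron, 1 Cajal-Retzius and 3 thalamic genes tested gave 0 calls and no unadjusted p under 0.05. Of 3 non-neuronal genes tested, P2ry12, a microglial receptor, had a change of 1.02 (edgeR adjusted p = 0.222). P2ry12 lies opposite the coding gene Med12l, and its levels came from 99 UMIs in Saline and 94 in EtOH embryos. Whether these UMIs came from microglia was not tested. Sox11 and Rbpj are themselves also used in progenitors and newborn neurons, and the part of the progenitor sums in their change was not tested.

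The treatment effect was set against that of the 3 clusters most alike in mean expression, namely Cluster 18 (r = 0.979), Cluster 7 (0.975) and Cluster 13 (0.967), over 11632 genes. The difference of effects was tested with embryo as a term. It was called for 0 of 8966 genes (0%) against Cluster 18, 1 of 10718 (0.00933%) against Cluster 7 and 0 of 9319 (0%) against Cluster 13, with 340, 379 and 329 genes at an unadjusted p under 0.05. The called gene was Tmtc1, an endoplasmic reticulum mannosyltransferase. In Cluster 15 it was at 69.8 to 121 CPM in Saline and 60.6 to 83.9 CPM in EtOH embryos, and in Cluster 7 at 50.5 to 91.5 and 95.7 to 119 CPM. The log2 effect was -0.23 (SE 0.13) in Cluster 15 and 0.59 (SE 0.14) in Cluster 7, a difference of -0.84 (SE 0.14, edgeR adjusted p = 0.0477). It rested on single embryos, since 0 genes were called against Cluster 7 in 8 of the 11 fits that left 1 out.

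The fall of Vwc2 was not shown to be particular to Cluster 15. Its log2 changes were 0.27 (SE 0.39), -0.18 (SE 0.41) and -0.06 (SE 0.46) in Clusters 18, 7 and 13, with wide errors, and the adjusted p of each difference was near 1. Sox11 changed by -0.56 (SE 0.13), -0.70 (SE 0.14) and -0.50 (SE 0.14) there, and Gm26909 by 1.34 (SE 0.37), 1.22 (SE 0.27) and 1.36 (SE 0.38). These clusters share their libraries with Cluster 15, so the values are given side by side only.

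Batch made no called difference within the cluster. Between batch 2 and batch 1, with treatment as a term, edgeR called 0 of 9846 genes (0%), also with size factors of the RLE method, and 467 genes had an unadjusted p under 0.05.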

How the data were processed

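Nuclei of 11 embryos were profiled with 10x 3' chemistry. Per the labels and the study's text, the authors aligned reads with Cell Ranger to mm10. They kept nuclei with 500 to 10000 genes and at most 100000 UMIs, and genes found in at least 10 nuclei. They also dropped nuclei above limits on mitochondrial, ribosomal and hemoglobin genes, and removed mitochondrial, sex-specific and some biased genes. They integrated batch and dam with Harmony, clustered, and clustered again without the non-neuronal clusters. Raw UMI counts per gene and nucleus were deposited for each cluster. No doublet caller is stated and none was run here. Counts of 23513 genes were summed per embryo. Treatment was tested with edgeR 4.0.16 in R 4.3.3 (TMM, filterByExpr, robust quasi-likelihood, Benjamini-Hochberg). Single values were tested with exact permutation tests that enumerated the splits of embryos (Python 3.11.15, NumPy 2.4.6). Positions and biotypes came from GENCODE release M21 on mm10, which matched 23090 genes by symbol. Pairs of littermate libraries differed by more than counting noise (chi-square per degree of freedom 2.42 to 5.36 over 11 pairs), so none was merged. Named genes were members of the lists, the 15 with the largest ratio to the next cluster, and the 12 called genes per direction with the smallest p. Alternatives and single embryos were checked for 51 genes, taken from the called genes and from list members with an unadjusted p under 0.05 between treatments. The genes of the Lhx8 comparison, the antisense class and the other called genes were named after their values were seen. Members and lists were chosen with earlier results of these data known. Some genes of the lists are not reported here. The edgeR script was tested on simulated counts.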

Additional observations from a re-analysis of the deposited data

Results flagged for a closer look

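In 108 groups of embryos checked for 51 genes (called genes, and listed genes with an unadjusted p under 0.05 between the treatments) and for the share, depth and gene number of the cluster, 8 single embryos lay far from the rest of their group, judged by the gap to the nearest embryo as a share of the group's range. Chance gives about 1 in 20 groups. S2-4 accounted for 5 of them, with a gap of 0.806 of the range for Gm30054 (44.5 CPM against 21.8 to 26.2 CPM), 0.881 for Gm16105 (33.6 against 12.8 to 15.3 CPM), 0.821 for Fndc9 (44.5 against 15.2 to 20.5 CPM), 0.719 for Kcnq1ot1 (509 against 682 to 749 CPM) and 0.771 for the AMPA receptor subunit Gria4 (1055 against 1339 to 1423 CPM). E1-1, the shallowest library of the cluster, had a gap of 0.753 for Gria4 (723 against 1087 to 1207 CPM) and of 0.682 for the RNA-binding protein gene Elavl2 (1035 against 771 to 855 CPM). E2-2 had one of 0.662 for the Wnt amplifier Rspo2 (13.6 against 2.99 to 6.58 CPM).

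The effect of EtOH on Tmtc1 differed between Cluster 15 and Cluster 7 by -0.84 on the log2 scale (edgeR interaction test, adjusted p = 0.0477), with levels given in the report.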

How the results depend on the processing

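No paired analysis was possible because sample numbers count embryos within a dam. All 38 called genes kept their direction wherever they were tested. The count of calls was 35 with RLE size factors and 29 with batch as a term. It was 71 with DESeq2 (56 higher, 15 lower), whose median log2 change over all genes was 0.16, and 341 with no low-count filter (216 higher, 125 lower). It was 318 with limma voom and dam as a random block, where the correlation within dams was -0.045. That fit therefore added no allowance for litter. The count was 97 with counts summed per dam (28 of the 38 among them), 13 in batch 1 alone (0 of the 38 among them) and 0 in batch 2 alone. With median depth as a term it was 3 (Vwc2, Fam19a5 and Gm26909), and with nuclei thinned to 2000 UMIs 11 of 4162 genes tested. Only 20 of the 38 could be tested in the thinned nuclei, and 4 of them were called. Among settings chosen after seeing the data, embryos with at least 60 nuclei gave 6 calls, the antisense share as a term 0 and protein-coding genes alone 8. Leaving out 1 embryo gave 4 to 393 calls. The same step moved the difference in share of nuclei from -0.932 to -0.330 percentage points, in median UMIs from -2374 (p = 0.0286, without S2-4, exact permutation test) to -1286, and in median genes from -396 (p = 0.0317, without E2-1, exact permutation test) to -161. Thinning turned the difference in median genes to 8.53 and that of Nlgn3 to -0.0050 on the log2 scale. With no filter, the difference of effects was called for 15 genes against Cluster 18, 15 against Cluster 7 and 10 against Cluster 13, and leaving out 1 embryo gave 0, 0 to 2 and 0 to 1. The cause of these changes was not tested. Depth limits the EtOH side most, since 3 UMIs correspond to 9.07 CPM in E1-1 and 1.06 CPM in S2-1. Each treatment rests on 2 dams.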
